A study of Mus musculus with 18 samples.

Results

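Cultured mouse smooth muscle cells given hydrogen peroxide (H2O2) were compared with untreated cells of the same line (Blank). The 6 libraries were chosen by the treatment in their labels, 3 labelled H2O2 and 3 labelled None, out of 18 in the series. The cells are MOVAS, an established mouse aortic smooth muscle line, so the replicates are cultures of a single line and not animals. The design text of the series names H2O2 and doxorubicin as inducers of cell senescence, the lasting growth arrest of damaged cells, and speaks of biological replicates. The other 4 groups of 3 libraries are doxorubicin (Dox) and 3 groups titled B_I, H_I and D_I, which the labels give as isoliensinine, a plant alkaloid. The sources used here do not state dose, time or culture conditions.

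Hydrogen peroxide oxidises cysteines of proteins and, through iron, damages DNA and lipids. Cells answer through several programmes. Catalase, peroxiredoxins and glutathione peroxidases remove the peroxide, and the transcription factor NRF2 raises antioxidant enzymes through antioxidant response elements. The transcription factor p53 raises the cell-cycle inhibitor p21 after DNA damage. Kinases that phosphorylate the initiation factor eIF2 slow translation and raise ATF4, the centre of the integrated stress response. In the wall of the aorta, smooth muscle cells also make the collagen and elastic fibres of the matrix, and damaged cells may change what they secrete.

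The 6 libraries held 13382308 to 16553596 read counts. H2O2_3 and Blank_4 stood apart from the other libraries of their groups. In a principal component analysis of the 6, the first component (30.2% of variance) placed H2O2_3 at 39.2 and Blank_4 at 61.1, and the other 4 libraries between -27.4 and -21.2. The second component (27.3%) held H2O2_3 at -66.8 and Blank_4 at 49.8, with the other 4 between -1.32 and 7.09. The groups of peroxide and untreated cells separated on the third component (18%), where H2O2_1 and H2O2_2 lay at 33.4 and 34.9, Blank_1 and Blank_2 at -39.0 and -27.7, and H2O2_3 and Blank_4 at 2.63 and -4.11. Acta2, the gene of smooth muscle alpha-actin, ranged widely, with 2375, 2173 and 3003 CPM (counts scaled for library depth) in H2O2 and 806, 901 and 4514 in Blank. Ribosomal protein genes summed to 66362, 65517 and 85982 CPM in H2O2 and to 82797, 76358 and 112308 in Blank. The 10 colon markers fixed for the check of other cell types summed to 53.7, 45.4 and 168 CPM in H2O2 and to 183, 129 and 57.0 in Blank. The 8 liver markers summed to 58.6, 44.3 and 125 CPM in H2O2 and to 112, 69.1 and 94.8 in Blank. These sums rest on Muc2, Lypd8, Car1, Dmbt1 and Ceacam1 in the colon list and on Alb in the liver list, and their part in the results was not tested. The smooth muscle markers Acta2, Smtn and Tpm2 were abundant, while Tagln lay between 0.124 and 0.621 CPM in H2O2 and between 0 and 0.601 in Blank, and Myocd at or below 0.310 CPM in all 6. Myh11 was low and varied, with 2.19, 1.30 and 6.76 CPM in H2O2 and 11.3, 5.61 and 1.80 in Blank. Cnn1 lay between 1.31 and 6.31 CPM and Mylk between 6.91 and 9.11 CPM in the 6. Of 8 lymphocyte markers, Cd3e of T cells and Ncr1 of natural killer cells were at 0 in all 6. Cd3g, Klrb1c and Nkg7 were at 0 in H2O2 and at or below 0.526 CPM in Blank, and Ptprc, of all white blood cells, lay between 0.248 and 1.71 CPM in H2O2 and between 0.751 and 2.18 CPM in Blank.

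A small part of the tested genes was called in H2O2 against Blank, while 1813 had an unadjusted p under 0.05 by edgeR's quasi-likelihood test. How much of the transcriptome peroxide moved cannot be read from the calls alone. By edgeR's quasi-likelihood test and Benjamini-Hochberg adjustment, fitted over all 18 libraries, 191 of 13375 tested genes passed an adjusted p of 0.05 (1.43%). Of these, 85 were higher in H2O2 (0.636%) and 106 lower (0.793%). Over 2-fold changes were made by 44 of them, 33 higher and 11 lower. The 3 H2O2 and 3 Blank libraries did not overlap for 190 of the 191, against 13.7% of all tested genes. The calls were made from these same libraries, so the separation is no independent support for them. The median log2 fold change of all tested genes was -0.02, and the median standard error (SE) of a gene's log2 fold change was 0.231, so that the usual 95% interval reached 0.481 to either side. Another scaling shifted the balance of the calls. With DESeq2's size factors in the edgeR fit 81 genes were higher and 67 lower, and with upper-quartile scaling 127 and 92. The count moved with the libraries and the tool in the fit. A fit of the 6 libraries alone, with its own filter, scaling and spread, called 5 genes (0.0415%), while DESeq2 called 428 (3.88%) and limma voom with library weights 753 (5.63%). Without Blank_4 there were 157 higher (1.14%) and 102 lower calls (0.74%). Without H2O2_3 there were 56 (0.408%) and 109 (0.794%), and without both libraries 134 (0.979%) and 82 (0.599%). The 3 fits without these libraries all kept 83 of the 191 calls, 43 higher and 40 lower. Leaving out Blank_1 left 94 calls and leaving out H2O2_1 left 109. Of the 191, 57 were kept in each of the 6 fits that left out a single library. In what follows, a gene named as called passed the edgeR test over the 18 libraries, and a call described as stable was kept in each of those 6 fits.

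**Figure D1:**
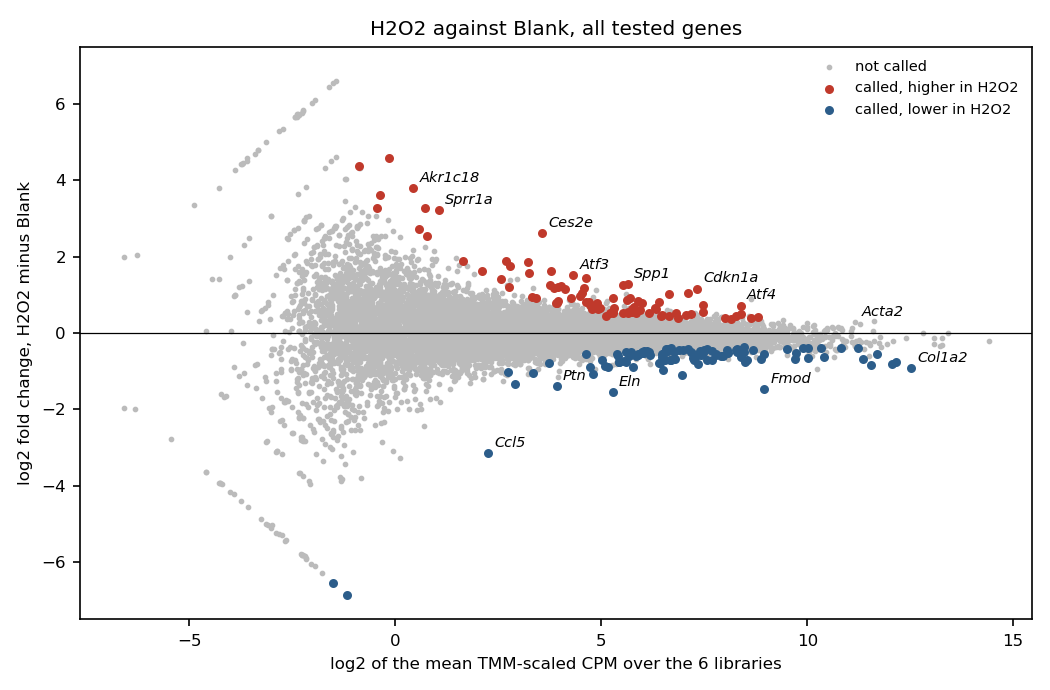
Log2 fold change of H2O2 over Blank (vertical) against the log2 of the mean TMM-scaled CPM over the 6 libraries (horizontal) for the tested genes; 2 genes with no count in the 6 libraries cannot be drawn. Red points are the 85 genes called higher and blue points the 106 called lower, and the steepest fall among genes above 1 CPM is that of Ccl5.

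Just 5 genes were called both over all 18 libraries and in the 6 libraries alone. They were Cdkn1a, Ces2e and Tmem86a, higher in H2O2, and Ccl5 and Fmod, lower. Among the 15 alternatives planned for the comparison, the replicate block also takes Blank_4 out, and in all 15 the 5 genes kept their call. In the 6 libraries without H2O2_3, an alternative added after seeing the data, Cdkn1a and Ces2e kept it, and Tmem86a (edgeR adjusted p = 0.0704), Ccl5 (0.0919) and Fmod (0.137) lost it. Cdkn1a (ENSMUSG00000023067; chromosome 17, 29309950 to 29319701 in the coordinates of the deposited table, which name no build) encodes p21. It stood at 231, 231 and 205 CPM in H2O2 and at 110.3, 97.2 and 90.5 CPM in Blank. Every H2O2 library was thus well above every Blank library, with means of 223 ± 15.2 and 99.4 ± 10.04 CPM (SD, n = 3 each). The rise was 2.24-fold (log2 1.16, SE 0.124, edgeR adjusted p = 2.61e-05), and log2 1.18 without H2O2_3 and Blank_4.

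Ces2e (ENSMUSG00000031886; chromosome 8, 105652892 to 105661304) encodes a carboxylesterase, an enzyme that splits esters. Its levels were 23.4, 22.4 and 14.9 CPM in H2O2 and 4.23, 3.33 and 2.18 CPM in Blank. The lowest H2O2 library, H2O2_3, was still several times the highest Blank library. The change was 6.17-fold (log2 2.62, SE 0.301, edgeR adjusted p = 8.36e-05), the steepest rise among genes that reach a mean of 5 FPKM (fragments scaled for gene length and depth) in the higher group. Ces2f, the neighbouring carboxylesterase gene, was called too, at 0.987, 1.36 and 0.777 CPM in H2O2 against 0.125, 0 and 0 CPM in Blank, and reads of such close relatives may be shared between them. The call of Ces2f was lost without H2O2_1, H2O2_2, Blank_2 or Blank_4 (edgeR adjusted p up to 0.0803), and that of Ces2e was stable.

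Tmem86a (ENSMUSG00000010307; chromosome 7, 46700349 to 46704525), which encodes a lysoplasmalogenase of ether lipid breakdown, showed the tightest groups of the 5. It had 177, 189.8 and 188 CPM in H2O2 and 90.6, 80.0 and 94.9 CPM in Blank. Peroxide-treated cells held about the same level in every library, at 2.09 times the untreated level (log2 1.06, SE 0.108, edgeR adjusted p = 1.64e-05).

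Ccl5 (ENSMUSG00000035042; chromosome 11, 83416604 to 83421344) encodes a chemokine that draws T cells and natural killer cells. It had 0.987, 0.744 and 1.16 CPM in H2O2 and 6.66, 8.32 and 10.7 CPM in Blank. All H2O2 libraries were close to the lower end of detection, and Blank was 8.85 times as high (log2 -3.15, SE 0.310, edgeR adjusted p = 1.64e-05). No other of the 14 tested chemokine genes was called, and the list's median log2 fold change was -0.18.

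Fmod (ENSMUSG00000041559; chromosome 1, 133964992 to 133976015) encodes fibromodulin, a proteoglycan that binds collagen fibrils. Its levels were 286, 285 and 213 CPM in H2O2 and 610.2, 634 and 939 CPM in Blank. Blank_4 was the highest library and H2O2_3 the lowest, and the groups were also apart without them. The log2 fold change was -1.48 (SE 0.176, edgeR adjusted p = 0.000104) over the 6, and -1.10 without H2O2_3 and Blank_4.

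**Figure D2:**
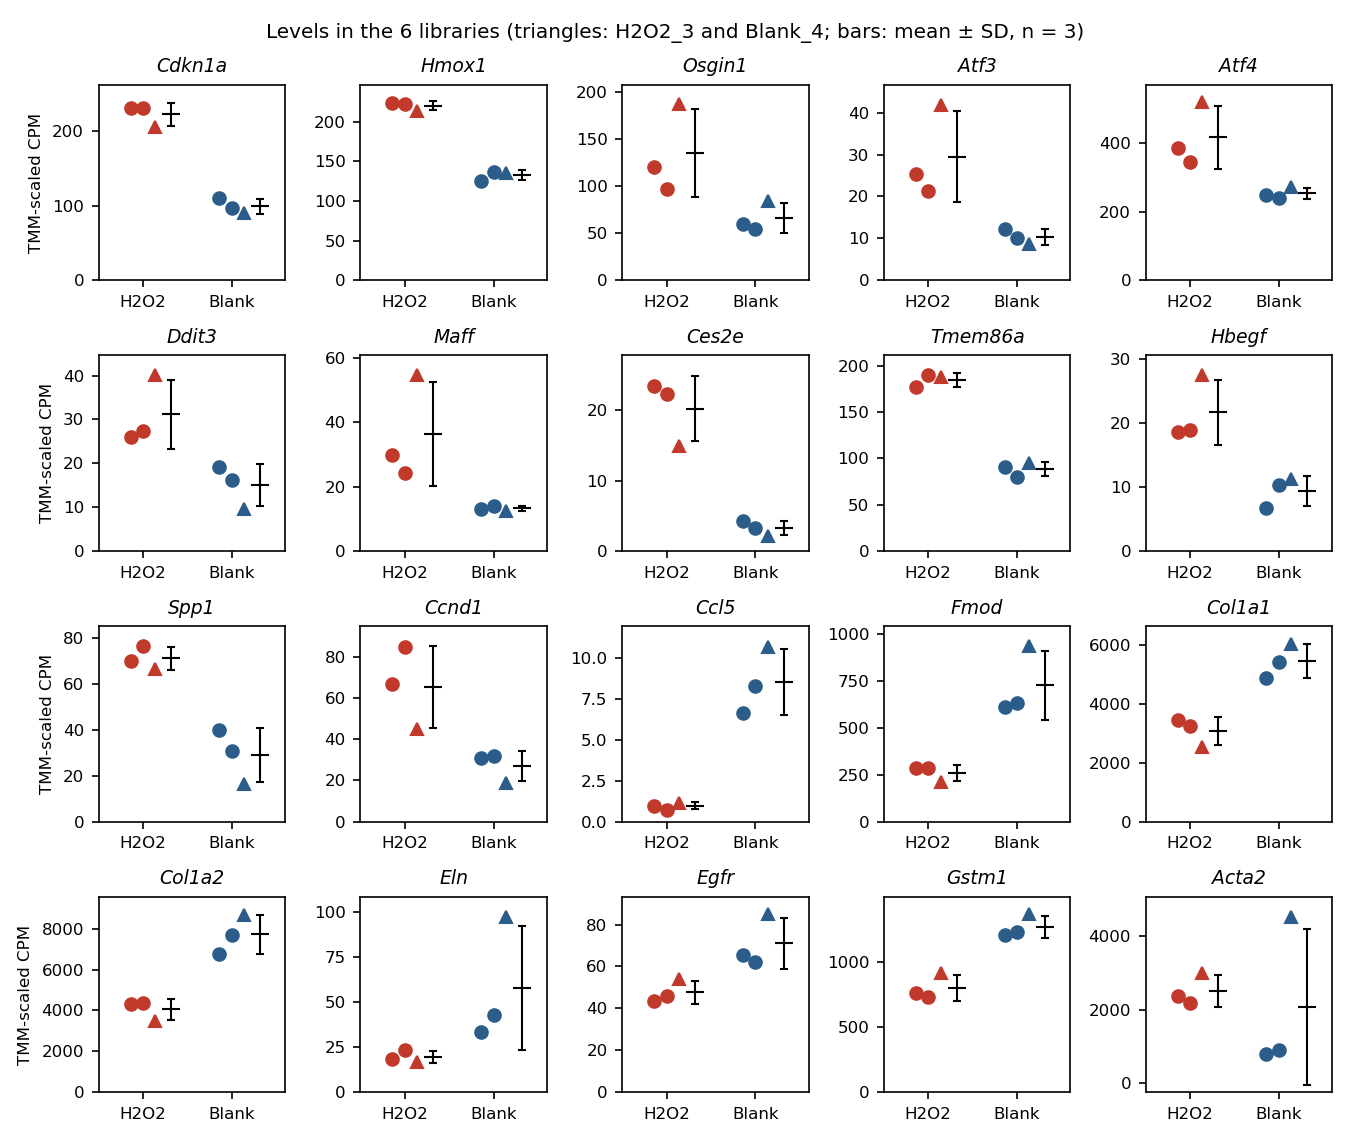
TMM-scaled CPM of 20 genes in the 3 H2O2 (red) and 3 Blank (blue) libraries, with the mean ± SD of each group in black; triangles mark H2O2_3 and Blank_4. For Cdkn1a, Hmox1, Ces2e, Tmem86a, Ccl5 and Fmod the groups are apart with and without the triangles, while Acta2 in Blank spans 806 to 4514 CPM.

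Of the p53 targets, 5 of 32 tested members rose and 0 fell, where 0.636% of all tested genes rose, and the median log2 fold change of the list was 0.30. Beside Cdkn1a these were Pierce1, Btg2, Zmat3 and Sesn2. Btg2, an antiproliferative gene, had 37.2, 35.8 and 25.9 CPM in H2O2 and 21.5, 19.8 and 22.4 CPM in Blank. H2O2_3 lay near the untreated cells, and the log2 fold change was 0.64 with it and 0.78 without it. Pierce1, a gene of motile cilia that p53 raises, stood at 2.89, 3.78 and 2.02 CPM in H2O2 against 0.747, 0.555 and 0.150 CPM in Blank (log2 2.54). The calls of Cdkn1a and Pierce1 were stable. Those of Btg2, Sesn2 and Zmat3 were lost in 4, 4 and 5 of the 6 fits without a single library, with edgeR adjusted p up to 0.123, 0.143 and 0.163. Without H2O2_3 the list held 3 higher calls. Ccng1 and Mdm2, also p53 targets, were not called. Ccng1 had 65.5, 71.8 and 37.1 CPM in H2O2 and 49.4, 40.9 and 16.8 CPM in Blank, both groups lowest in the library that stood apart. Mdm2, which encodes the ligase that degrades p53, overlapped between the groups, at 5.499, 6.51 and 7.999 CPM in H2O2 and 6.85, 5.36 and 4.43 CPM in Blank.

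The integrated stress response list had 6 members higher and 1 lower of 44 tested, with a median of 0.21, and 34 of the 44 had a positive log2 fold change. Over all tested genes 0.636% were called higher and 0.793% lower. Atf4, the transcription factor at its centre, had 385, 345 and 518 CPM in H2O2 and 249.6, 239 and 271 CPM in Blank. No untreated library reached the lowest treated one, and H2O2_3 was the highest of all (log2 0.72, SE 0.129, edgeR adjusted p = 0.00523; log2 0.53 and adjusted p = 0.026 without H2O2_3). Atf3, a repressor and a target of ATF4, stood at 25.3, 21.3 and 41.9 CPM in H2O2 and 12.2, 10.2 and 8.57 CPM in Blank. The rise was 2.85-fold (log2 1.51, SE 0.209, edgeR adjusted p = 0.000469), and log2 1.17 without H2O2_3. Ppp1r15a, which encodes the phosphatase subunit that restores translation, had 93.2, 88.7 and 141 CPM in H2O2 and 59.3, 64.2 and 61.8 CPM in Blank (log2 0.80). The calls of these 3 genes were stable.

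Ddit3, which encodes the transcription factor CHOP, had 25.9, 27.3 and 40.1 CPM in H2O2 and 19.1, 16.1 and 9.69 CPM in Blank. The groups did not overlap, although Blank_4 and H2O2_3 gave much of the distance. The log2 fold change was 1.05 (SE 0.216, edgeR adjusted p = 0.0145), with an adjusted p of 0.066 without H2O2_3. Cebpb, whose product pairs with ATF4 and CHOP, rose by log2 0.91, with an edgeR adjusted p of 0.0568 without H2O2_3 and 0.055 without Blank_1. Sesn2, which encodes a sensor of amino acids and a reducer of peroxide stress, is on the p53 list as well (log2 0.50). Atf5, a target whose translation the pathway controls, was the member that fell (log2 -0.62), and it missed the threshold without Blank_4 (log2 -0.41, edgeR adjusted p = 0.0638), H2O2_1 or H2O2_2. Trib3 (log2 0.39, edgeR adjusted p = 0.0826), Chac1 (0.52, 0.162), Asns (0.21, 0.406) and Psat1 (-0.01, 0.970), amino acid and feedback targets of ATF4, were not called. Without H2O2_3 the list held 3 higher and 1 lower call, without Blank_4 10 and 0, and without both 7 and 0. None of 22 tested genes of endoplasmic reticulum stress and folding was called (median 0.10), against 1.43% of all tested genes. Without both H2O2_3 and Blank_4, 1 of them was called higher.

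Of the NRF2 targets, 2 rose and 1 fell among 33 tested, where 0.636% of all tested genes rose and 0.793% fell, and the list's median log2 fold change was 0.01. Hmox1, which encodes the heme oxygenase that releases iron and biliverdin, had 224, 223 and 214 CPM in H2O2 and 126, 137 and 135 CPM in Blank. Its groups were narrow and far apart, with means of 220.1 ± 5.496 and 133 ± 6.07 CPM (SD, n = 3 each), a rise of 1.66-fold (log2 0.73, SE 0.102, edgeR adjusted p = 0.000469). Osgin1, an oxidative stress gene that restrains growth, stood at 121, 96.9 and 187 CPM in H2O2 and at 59.5, 54.2 and 84.2 CPM in Blank. The log2 fold change was 1.03 (SE 0.195, edgeR adjusted p = 0.00784), and 0.72 without H2O2_3, and the adjusted p was 0.0534 without Blank_1. Gstm1, a glutathione transferase with close relatives in its gene cluster, moved the other way, at 758, 732 and 915 CPM in H2O2 and 1208, 1229 and 1368 CPM in Blank (log2 -0.66, stable). Nqo1, Gclm, Srxn1 and Txnrd1, textbook NRF2 targets, were not called, and their groups overlapped. Srxn1 had 114, 99.4 and 102 CPM in H2O2 and 111, 107 and 110.1 CPM in Blank, and its 95% interval ran from -0.27 to 0.16 on the log2 scale. Nqo1 had 29.4, 21.2 and 14.6 CPM in H2O2 and 25.7, 22.7 and 20.9 CPM in Blank, Gclm 71.2, 66.3 and 55.1 CPM in H2O2 and 62.5, 59.9 and 46.0 CPM in Blank. The intervals were -0.54 to 0.36 for Nqo1, -0.06 to 0.45 for Gclm and -0.32 to 0.61 for Txnrd1.

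Of 23 tested enzymes that remove peroxide 0 rose and 1 fell, with a median of -0.06, where 0.636% of all tested genes rose and 0.793% fell. A single call in 23 does not set the list apart from all tested genes. The groups did not overlap for 7 members, 4 higher and 3 lower in H2O2, where 13.7% of all tested genes did not overlap. The member that fell was Prdx4, the peroxiredoxin of the secretory pathway, at 359.9, 359 and 480.2 CPM in H2O2 and 557, 503 and 687 CPM in Blank (log2 -0.54, edgeR adjusted p = 0.0466). Its call was lost without Blank_4 (0.098), without Blank_1 and without H2O2_1 or H2O2_2. The list of these enzymes held 1 higher and 0 lower calls without Blank_4. It held 0 higher and 1 lower call without H2O2_3, and the same without both. Catalase (Cat) had 26.3, 22.7 and 23.1 CPM in H2O2 and 21.1, 19.9 and 11.9 CPM in Blank, a log2 fold change of 0.44 with an interval of -0.02 to 0.90 (edgeR adjusted p = 0.395). Prdx1, an abundant cytosolic peroxiredoxin, had 394, 360.2 and 409 CPM in H2O2 and 308, 308 and 269.7 CPM in Blank. These groups did not overlap, but the test over all genes did not call it (log2 0.39, edgeR adjusted p = 0.0891). Of the alternatives, only DESeq2 called Prdx1, as higher (DESeq2 adjusted p = 0.0229). Gpx1 was listed below 1.6 CPM in all 6 libraries, too low for a comparison.

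Immediate early genes, which cells switch on within minutes of a stimulus, had 3 of 30 members higher and 0 lower, with a median of 0.31, against 0.636% of all tested genes called higher. They were Atf3 and the small Maf factors Maff and Mafk, which pair with NRF2 at antioxidant response elements. Maff had 30.0, 24.4 and 54.7 CPM in H2O2 and 13.2, 14.1 and 12.3 CPM in Blank. All treated libraries were above all untreated ones and H2O2_3 was highest (log2 1.46, SE 0.214, edgeR adjusted p = 0.000677; 1.04 without H2O2_3). Mafk rose by log2 0.64, and its adjusted p was 0.137 without H2O2_3, 0.118 without Blank_2 and 0.0634 without Blank_1. Fos (log2 -0.02), Egr1 (-0.20) and Jun (0.45) were not called. Hspa1b, a stress-induced heat shock protein with a near-identical copy in Hspa1a, was the only called member of 20 heat shock genes (log2 0.97). It was lost without H2O2_3 (edgeR adjusted p = 0.0918), Blank_1 or Blank_2. The list held 5 higher calls without Blank_4, 0 without H2O2_3 and 3 without both.

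The promoter windows of 4 of these genes are shown because each holds a match to a motif of a factor that the stress programmes above use. The windows are from RefSeq on GRCm38.p6, from 250 bases before to 50 bases after the gene's start, and 73 of the 85 genes called higher, 77 of the 106 called lower and 10595 of the 13375 tested had at least 1. The motifs searched on both strands were TGATGNAAN (a C/EBP-ATF response element), TGACNNNGC (the core of the antioxidant response element) and TGANTCA (an AP-1 site, which can overlap the antioxidant core). Capitals mark the matches in Atf3 (C/EBP-ATF, on the other strand, at chr1:191183284-191183583, minus strand), Maff (antioxidant core, chr15:79346371-79346670, plus strand), Osgin1 (AP-1, chr8:119436897-119437196, plus strand) and Ddit3 (AP-1, chr10:127290543-127290842, plus strand).
Atf3: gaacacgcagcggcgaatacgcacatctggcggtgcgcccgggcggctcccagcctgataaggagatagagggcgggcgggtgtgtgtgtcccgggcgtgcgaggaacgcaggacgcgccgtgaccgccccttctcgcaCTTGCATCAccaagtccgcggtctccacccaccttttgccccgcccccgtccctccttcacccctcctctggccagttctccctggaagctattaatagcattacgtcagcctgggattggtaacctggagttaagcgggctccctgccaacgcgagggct
Maff: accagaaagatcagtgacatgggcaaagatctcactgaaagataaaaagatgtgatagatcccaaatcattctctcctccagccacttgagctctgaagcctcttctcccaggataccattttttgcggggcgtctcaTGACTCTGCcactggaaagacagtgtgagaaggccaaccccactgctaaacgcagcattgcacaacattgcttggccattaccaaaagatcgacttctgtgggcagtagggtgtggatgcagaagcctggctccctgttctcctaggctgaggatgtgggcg
Osgin1: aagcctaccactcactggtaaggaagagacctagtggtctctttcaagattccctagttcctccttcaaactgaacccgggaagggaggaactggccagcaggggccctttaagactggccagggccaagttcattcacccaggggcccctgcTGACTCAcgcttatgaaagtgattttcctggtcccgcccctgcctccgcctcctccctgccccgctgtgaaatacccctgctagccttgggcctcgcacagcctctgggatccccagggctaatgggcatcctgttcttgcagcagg
Ddit3: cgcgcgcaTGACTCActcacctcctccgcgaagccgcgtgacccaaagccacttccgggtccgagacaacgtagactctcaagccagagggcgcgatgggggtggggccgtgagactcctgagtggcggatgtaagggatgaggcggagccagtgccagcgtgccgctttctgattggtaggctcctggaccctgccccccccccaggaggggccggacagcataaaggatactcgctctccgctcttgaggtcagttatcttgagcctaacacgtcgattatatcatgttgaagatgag

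The C/EBP-ATF element was in the windows of 5.48% of the genes called higher and 2.6% of those called lower, against 2.78% of tested genes. The antioxidant core was in 21.9% and 22.1%, against 16.8%. The AP-1 site was in 13.7% and 11.7%, against 6.53%. No test was made of these shares, and 4 genes make up the first of them. Atf4, Ces2e, Tmem86a and Fmod had none of the 3 motifs in their windows, nor had the other windows of Maff. The antioxidant core was also matched in a window each of Cdkn1a, Cebpb, Ppp1r15a and Sesn2, which are not shown. A match describes letters in a window and is not a binding site.

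Of 20 tested collagens 0 rose and 4 fell, where 0.793% of all tested genes fell, and the list's median log2 fold change was -0.56, with 17 of the 20 negative. Col1a1, a chain of the fibrillar collagen type I, had 3462, 3235 and 2536 CPM in H2O2 and 4878, 5438 and 6031 CPM in Blank. Every treated library was below every untreated one, at log2 -0.82 (SE 0.117, edgeR adjusted p = 0.000481). Col1a2, its partner chain, was at 4336, 4377 and 3475 CPM in H2O2 and 6779, 7689.9 and 8667 CPM in Blank (log2 -0.92, SE 0.128, edgeR adjusted p = 0.000469). Without H2O2_3 and Blank_4 the log2 fold changes were -0.60 for Col1a1 and -0.70 for Col1a2, and both calls were stable. Col3a1, another fibrillar collagen, had 80.4, 95.4 and 59.8 CPM in H2O2 and 146, 191 and 173 CPM in Blank (log2 -1.11). Its call and that of Col11a1 (log2 -0.90), a collagen that starts fibrils, were each lost in 4 of the 6 fits without a single library, with edgeR adjusted p up to 0.105 and 0.165. Col4a1, of basement membranes, was not called and overlapped, with 222, 217 and 215 CPM in H2O2 and 201, 214 and 269 CPM in Blank. Col4a6 and Col4a4, of the same collagen type but not on the list, were called lower and are named after their values were seen. Col4a6 had 113, 136 and 106 CPM in H2O2 and 184, 226 and 219 CPM in Blank (log2 -0.82, edgeR adjusted p = 0.0016, stable). Col4a4 had 3.81, 3.72 and 5.13 CPM in H2O2 and 10.03, 12.9 and 9.02 CPM in Blank (log2 -1.34), and was lost without H2O2_1, H2O2_2, Blank_1 or Blank_2 (edgeR adjusted p up to 0.109). Without H2O2_3 the list held 2 lower calls.

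Elastic fibre and matrix glycoprotein genes followed, with 0 of 23 higher and 5 lower and a median of -0.24. The share called lower over all tested genes was 0.793%. Sparc, a collagen-binding glycoprotein, had 3494, 3542 and 3182 CPM in H2O2 and 5513, 5537 and 6163 CPM in Blank. The narrow groups were far apart (log2 -0.75, SE 0.098, edgeR adjusted p = 0.000246). Fbln5, which assembles elastic fibres, had 303, 295 and 205 CPM in H2O2 and 437, 465 and 461 CPM in Blank (log2 -0.76). Ltbp4, which brings TGF-beta to elastic fibres, fell by 0.56 on the log2 scale, and Emilin1, a glycoprotein of their surface, by 0.47. Eln, the gene of elastin itself, had 18.5, 23.3 and 17.0 CPM in H2O2 and 33.6, 43.0 and 97.1 CPM in Blank. All 3 treated libraries were lower, but Blank_4 was far above the other untreated libraries, and the log2 fold change was -1.56 with it and -0.95 without it. The calls of Sparc, Fbln5 and Ltbp4 were stable, Emilin1 was lost without H2O2_2 (edgeR adjusted p = 0.0554), and Eln without H2O2_1 (0.0674) or H2O2_3 (0.0642). Fn1, the fibronectin gene, was not called, at 3589.8, 3418 and 2519 CPM in H2O2 and 2665, 3208 and 3322 CPM in Blank, and its 95% interval was -0.22 to 0.32.

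Against 0.793% of all tested genes that fell, 3 of 9 tested proteoglycans fell and 0 rose, with a median of -0.50. Beside Fmod these were Bgn, which encodes biglycan, and Prelp, which anchors basement membranes to collagen. Bgn had 2675, 2416 and 2969 CPM in H2O2 and 3531, 3520 and 4805 CPM in Blank, and Prelp 15.0, 21.2 and 17.6 CPM in H2O2 and 26.9, 34.7 and 52.1 CPM in Blank. In both the untreated libraries were the higher, Blank_4 most of all, and without it neither was called (edgeR adjusted p = 0.109 and 0.0745). Bgn was also lost without H2O2_1, H2O2_2 or Blank_1, and Prelp without H2O2_1 or H2O2_3. Among 20 genes of collagen processing, against the same share, 0 rose and 2 fell. These were Adamts2, the procollagen N-proteinase (log2 -0.51), and P3h3, of the prolyl 3-hydroxylases (log2 -0.60). P3h3 lost its call in 5 of the 6 fits without a single library, all but that without Blank_2, and Adamts2 without H2O2_2 (edgeR adjusted p = 0.0554). Lox, the lysyl oxidase gene, overlapped, with 124, 158 and 79.2 CPM in H2O2 and 94.96, 111 and 95.1 CPM in Blank.

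Of 5 tested fibroblast markers 1 fell, where 0.793% of all tested genes fell. The list's median was -0.52, with 2 of the log2 fold changes positive and 3 negative. The 6 markers on the list summed to 80.9, 78.2 and 109 CPM in H2O2 and to 141, 150.5 and 174 CPM in Blank. Serpinf1, which encodes the secreted factor PEDF, made most of that, at 51.9, 55.2 and 75.7 CPM in H2O2 and 103, 110 and 145 CPM in Blank (log2 -0.97). Its call was lost without H2O2_1 (edgeR adjusted p = 0.0639). Pdgfra had 20.8, 17.4 and 22.4 CPM in H2O2 and 29.6, 34.8 and 22.2 CPM in Blank. Dpt had 0.212, 0 and 0.621 CPM in H2O2 and 1.49, 1.66 and 0.977 CPM in Blank, and neither was called. Dcn, which encodes the proteoglycan decorin, had 5.99, 3.91 and 6.601 CPM in H2O2 and 4.36, 2.53 and 3.91 CPM in Blank (log2 0.61, not called). Thy1, a surface glycoprotein, had 1.48, 1.67 and 4.04 CPM in H2O2 and 1.93, 1.79 and 1.803 CPM in Blank. Lum was between 0 and 0.564 CPM in H2O2 and between 0.123 and 0.623 CPM in Blank. Whether other cells took part was not tested. In bulk RNA, fewer cells of a type and less RNA per cell cannot be told apart.

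**Figure D3:**
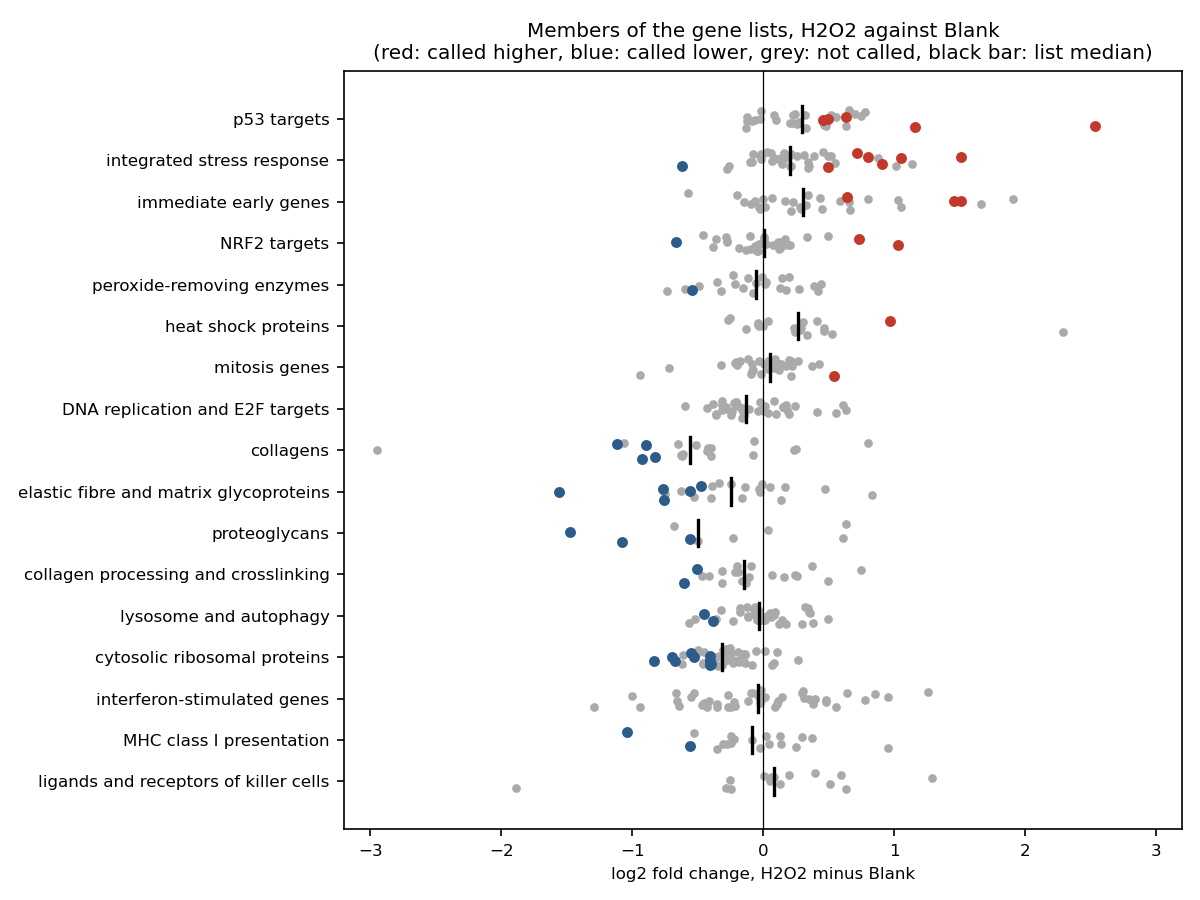
Log2 fold change of H2O2 over Blank for the tested members of 17 gene lists, with red points called higher, blue called lower and grey not called; black bars are list medians and the vertical scatter only spreads the points. The 4 called collagens, 3 proteoglycans and 5 matrix glycoproteins lie left of 0, and 5 p53 targets and 6 integrated stress response genes lie right of it.

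In the list of matrix proteases and inhibitors 3 of 24 were higher and 0 lower, with a median of 0.05. The share called higher over all tested genes was 0.636%. Slpi, a secreted inhibitor of elastase, had 21.9, 16.6 and 23.5 CPM in H2O2 and 7.78, 6.59 and 5.71 CPM in Blank. The lowest treated library was more than the highest untreated one by a wide margin (log2 1.62, SE 0.212, edgeR adjusted p = 0.000246, stable). Plaur, the urokinase receptor, was at 16.4, 21.3 and 34.9 CPM in H2O2 and 9.71, 10.1 and 12.5 CPM in Blank (log2 1.16, stable; 0.81 without H2O2_3). Timp3, an inhibitor of metalloproteinases, rose by log2 0.53, and was lost without H2O2_2 (edgeR adjusted p = 0.105) or Blank_1 (0.0887). Anxa8, an annexin, and Tnfrsf23, a decoy receptor of the death ligand TRAIL, were among the steepest rises, at log2 1.58 and 1.19. Anxa8 was lost without H2O2_1, H2O2_2, Blank_2 or Blank_4, with edgeR adjusted p up to 0.107. Gadd45g, a growth arrest gene, had 6.49, 4.53 and 19.5 CPM in H2O2 and 2.37, 1.48 and 4.36 CPM in Blank, and its log2 fold change of 1.90 was 1.02 without H2O2_3 (edgeR adjusted p = 0.231). It was also lost without Blank_1 or Blank_2.

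Among 34 factors of the senescent secretory phenotype 2 rose and 1, Ccl5, fell, and the median was 0.29. Over all tested genes 0.636% rose and 0.793% fell. Spp1, which encodes osteopontin, had 69.9, 76.4 and 66.6 CPM in H2O2 and 39.9, 30.8 and 16.5 CPM in Blank (log2 1.28, SE 0.202, edgeR adjusted p = 0.00161). Hbegf, a ligand of the EGF receptor, had 18.5, 18.9 and 27.5 CPM in H2O2 and 6.79, 10.2 and 11.2 CPM in Blank (log2 1.20, SE 0.186, edgeR adjusted p = 0.00121). Both were stable, with no treated library as low as an untreated one. Ccl2, a chemokine for monocytes, was higher in each treated library, at 2.68, 2.60 and 7.92 CPM in H2O2 and 1.49, 1.602 and 0.225 CPM in Blank, but was not called (log2 1.96, edgeR adjusted p = 0.0768). Of 36 growth factors and receptors Hbegf rose and 2 fell. Egfr, the receptor of HB-EGF, had 43.4, 46.1 and 54.0 CPM in H2O2 and 65.7, 62.4 and 85.0 CPM in Blank (log2 -0.57, edgeR adjusted p = 0.0496). It was lost without Blank_4 (0.127), Blank_1, H2O2_1 or H2O2_2. Ptn, the secreted factor pleiotrophin, had 7.19, 10.6 and 7.07 CPM in H2O2 and 23.2, 24.5 and 17.9 CPM in Blank (log2 -1.40, SE 0.236, edgeR adjusted p = 0.00298, stable). Also among the steepest falls were Pianp, a ligand of an inhibitory receptor on myeloid cells (log2 -0.90, stable), Cd109, a co-receptor that dampens TGF-beta signals (-0.88), and Snrpb2, of the spliceosome (-0.87). Cd109 was lost in 4 of the 6 fits without a single library, with edgeR adjusted p up to 0.077, and Snrpb2 without H2O2_1 (0.0579) or H2O2_3 (0.0636).

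The genes of growth arrest did not move as a block. Over all tested genes 0.636% were called higher and 0.793% lower. Beside Cdkn1a, the senescence regulator list held 1 lower call of 23, Glb1, which encodes the beta-galactosidase of the senescence stain. Glb1 had 101, 103 and 116 CPM in H2O2 and 140.4, 150.2 and 145 CPM in Blank (log2 -0.45, edgeR adjusted p = 0.0179), and was lost without H2O2_1, H2O2_2 or Blank_2. Cdkn2a, the p16 locus, was not called and overlapped, with 117, 124 and 96.5 CPM in H2O2 and 115, 123 and 162 CPM in Blank (log2 -0.24, 95% interval -0.57 to 0.09). Lmnb1, the lamin that is lost in senescence, was at 58.4, 67.4 and 45.4 CPM in H2O2 and 75.1, 77.2 and 63.3 CPM in Blank, also not called (log2 -0.33, edgeR adjusted p = 0.304). Of 35 mitosis genes 1 rose, the kinase gene Aurka, at 237, 209 and 183 CPM in H2O2 and 138, 142 and 151 CPM in Blank (log2 0.54, SE 0.094, edgeR adjusted p = 0.00359, stable). The list held 2 higher calls without Blank_4, 1 without H2O2_3 and 6 without both. The median of the list was 0.05, and that of 40 DNA replication genes, of which 0 were called, was -0.13. Without H2O2_3, 1 DNA replication gene was called lower. Mki67, the proliferation marker, had 18.7, 19.9 and 13.8 CPM in H2O2 and 28.8, 32.6 and 24.8 CPM in Blank. Its groups did not overlap, yet it was not called (log2 -0.72, 95% interval -1.18 to -0.25, edgeR adjusted p = 0.123). Ccnd1, cyclin D1 of the G1 phase, had 66.8, 84.6 and 44.8 CPM in H2O2 and 31.0, 31.7 and 18.9 CPM in Blank, the steepest change of the cell-cycle genes (log2 1.26, SE 0.224, edgeR adjusted p = 0.00516, stable). The linker histone gene H1f2 and the core histone gene H2bc4 rose by log2 1.23 and 1.75. Histone genes have close copies and mostly no poly-A tail, so these values are uncertain.

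Of 19 contractile genes 1 rose, Tpm1, a tropomyosin (log2 0.51), and it was lost without H2O2_3 (edgeR adjusted p = 0.0636), Blank_1 or Blank_2. A single call in 19 does not set the list apart from all tested genes, of which 0.636% were called higher. Without both H2O2_3 and Blank_4 the list held 1 higher and 1 lower call, and the list of smooth muscle markers 1 lower. Acta2 was not called, and its sign turned with the libraries in the fit. The log2 fold change was 0.28 (95% interval -0.99 to 1.55), 1.57 without Blank_4, and -0.11 without Blank_1. Of the alternatives, 2 called it higher, limma voom with library weights (log2 1.36, adjusted p = 0.000497) and edgeR on the 6 libraries without Blank_4. Of 9 genes of bone and cartilage fate, which calcifying smooth muscle takes on, 2 rose, Spp1 and Alpl, the alkaline phosphatase (log2 0.92). The median of these 9 was -0.17, with 4 log2 fold changes positive and 5 negative. The list held 1 higher and 1 lower call without H2O2_3, and 2 and 1 without both that library and Blank_4. Alpl was lost without H2O2_2, H2O2_3, Blank_1 or Blank_2, with edgeR adjusted p up to 0.0837. In 40 lysosome and autophagy genes 0 rose and 2 fell, where 0.793% of all tested genes fell. The 2 were Glb1 and Psap, prosaposin (log2 -0.39), and Psap was lost in 4 of the 6 fits without a single library. Srebf1, a regulator of lipid synthesis, fell by 0.44 on the log2 scale, and was lost without H2O2_3 (edgeR adjusted p = 0.084), Blank_1 or Blank_2.

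Of 50 tested ribosomal protein genes 0 rose and 10 fell, and 45 of the 50 log2 fold changes were negative (median -0.31). The share called lower over all tested genes was 0.793%. Rpl10 had 1934, 1906 and 2224 CPM in H2O2 and 3078, 2889.7 and 3680.1 CPM in Blank (log2 -0.67, stable). Rps4x, whose fall was the largest of the 10, stood at 2006, 1962 and 2470 CPM in H2O2 and 3484, 2971 and 4992 CPM in Blank (log2 -0.83, edgeR adjusted p = 0.0225), and was lost without Blank_4 (0.0631), H2O2_1 or H2O2_2. Blank_4 held the highest sum of these genes, and 6 were called without it, 9 without H2O2_3 and 4 without both. With DESeq2's size factors in the edgeR fit 3 of the list were called. The other 8 each lost their call in 3 or more of the 6 fits without a single library. These genes have many processed copies, and reads may be split between them.

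For immune recognition, the theme of the series title, 0 of 15 ligands and receptors of killer cells were called (median 0.08), against 1.43% of all tested genes. The list held 1 higher call without Blank_4 (median -0.06), 0 without H2O2_3 (0.08) and 1 without both (-0.08). Raet1e, a ligand of the activating receptor NKG2D with close relatives, had 31.5, 28.4 and 32.3 CPM in H2O2 and 32.01, 32.4 and 27.5 CPM in Blank, with a 95% interval of -0.27 to 0.27 on the log2 scale. Ulbp1, another such ligand, overlapped as well (log2 0.06, 95% interval -0.49 to 0.61). In MHC class I presentation 2 of 19 fell, Tap2, a peptide transporter (log2 -0.56), and Erap1, a peptide-trimming protease (log2 -1.04). The share called lower over all tested genes was 0.793%. Tap2 was lost in all 6 fits without a single library and Erap1 in 3. The list held 0 higher and 1 lower call without Blank_4, 0 and 0 without H2O2_3, and 1 and 1 without both. None of 46 interferon-stimulated genes was called, and their median was -0.04. Without both H2O2_3 and Blank_4, 1 of them was called lower. Isg15, an antiviral ubiquitin-like protein, was higher in each treated library, at 12.7, 14.4 and 12.8 CPM in H2O2 and 8.66, 8.20 and 8.72 CPM in Blank, but did not pass the test over all genes (log2 0.64, edgeR adjusted p = 0.093).

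Nothing was called in the lists of DNA repair (31 tested, median -0.16), NF-kB (22, 0.14), the BCL2 family and caspases (28, -0.10), TGF-beta and BMP signalling (28, -0.04), Wnt and Notch signalling (28, -0.17), sterol synthesis (26, 0.06), glycolysis and hypoxia (30, 0.11) or metallothioneins (7, 0.16). Likewise 0 of 40 nuclear genes of oxidative phosphorylation and 0 of 12 mitochondrially encoded genes were called, with medians of -0.09 and 0.02. Without Blank_4 there were higher calls in NF-kB (1), TGF-beta and BMP signalling (1) and glycolysis and hypoxia (2). Without both Blank_4 and H2O2_3, TGF-beta and BMP signalling and Wnt and Notch signalling held 1 higher call each. Without H2O2_3 none of these lists held a call, and the NF-kB median was -0.14. A list of 28 genes would hold fewer than 1 call at the background share of 1.43%.

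Some genes barely detected in untreated cells also rose steeply. These were picked after their values were seen. Sprr1a, a protein of the skin's cornified envelope, had 3.95, 2.23 and 5.13 CPM in H2O2 and 0.498, 0.370 and 0.301 CPM in Blank (log2 3.23, SE 0.398, edgeR adjusted p = 0.000125). Sbsn, suprabasin of the same layer, had 3.53, 3.16 and 2.25 CPM in H2O2 and 0.125, 0.678 and 0.0751 CPM in Blank (log2 3.28). Akr1c18, a reductase that inactivates progesterone, had 3.74, 1.36 and 2.49 CPM in H2O2 and 0.311, 0.185 and 0 CPM in Blank (log2 3.81). Robo3, a receptor that guides axons, had 1.55, 1.12 and 1.63 CPM in H2O2 and 0.187, 0.123 and 0 CPM in Blank (log2 3.62). Their folds rest on few counts in Blank. The calls of Sprr1a, Sbsn and Robo3 were stable, and Akr1c18 was lost without H2O2_1 (edgeR adjusted p = 0.0506). Zfp51 and Satb1 were listed at 0 in every H2O2 library, at 0.623, 0.801 and 0.676 CPM for Zfp51 and 0.747, 0.616 and 1.28 CPM for Satb1 in Blank. Zfp51 was lost in all 6 fits without a single library (edgeR adjusted p up to 0.124), and Satb1 without H2O2_1 or H2O2_2 (up to 0.0691).

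H_I and B_I share no library with H2O2 and Blank. The labels give both as isoliensinine only, and their titles run in parallel with H2O2 and Blank, so that H_I is read here as peroxide with isoliensinine, a reading the labels do not state. H_I against B_I called 195 genes (1.46%), 62 higher (0.464%) and 133 lower (0.994%). Of the 191 genes called in H2O2 against Blank, 187 had the same sign in H_I against B_I (97.9%), 83 of the 85 higher and 104 of the 106 lower. Over all tested genes, 55.4% were positive and 44.6% negative in H_I against B_I. The share of all tested genes with the same sign in both comparisons was not computed. Of the 191, 69 were called in H_I against B_I in the same direction and 0 in the opposite one. The 69 are 36.1% of the 191 and 35.4% of the 195. The median log2 fold change of the 85 was 0.81 in H2O2 against Blank and 0.44 in H_I against B_I, and that of the 106 was -0.58 and -0.48. B_I_3 had an Acta2 level of 3875 CPM, where Blank_4 had 4514 CPM, and without B_I_3 185 of the 191 had the same sign. The number of calls in H_I against B_I rested on single libraries, with 37 without H_I_1 and 73 without B_I_3. The colon markers summed to 739, 220 and 282 CPM in H_I and to 257, 98.6 and 64.9 in B_I. The liver markers summed to 358, 126 and 124 CPM in H_I and to 109, 73.5 and 79.1 in B_I. Their list medians were 1.62 and 1.29 in H_I against B_I, and -0.44 and -0.28 in H2O2 against Blank. The part of these markers in H_I against B_I was not tested. Cdkn1a (log2 0.94), Ces2e (2.31), Tmem86a (0.97), Ccl5 (-2.11) and Fmod (-1.34) were called there too. Of the stress genes, Atf3 (1.20) and Maff (1.21) were called, while Atf4 (0.06), Cebpb (-0.03) and Hmox1 (0.32) were not. The difference between both comparisons, tested itself as an interaction, called 0 genes by edgeR (813 at an unadjusted p under 0.05), 2 by DESeq2 and 75 by limma voom with library weights.

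**Figure D4:**
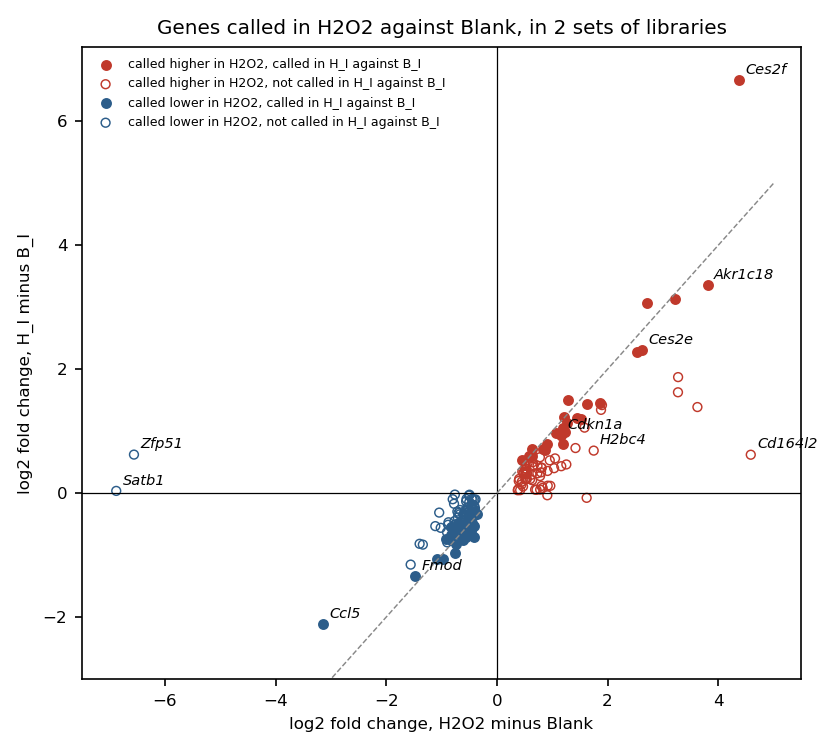
Log2 fold change of H_I over B_I (vertical) against that of H2O2 over Blank (horizontal) for the 191 genes called in H2O2 against Blank; filled points were called in both, and the dashed line marks equal values. The 4 points whose signs differ between the axes include Satb1 and Zfp51, which had no count in H2O2.

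H2O2 against Dox uses the same H2O2 libraries, so the values are given only side by side. With edgeR's quasi-likelihood test and Benjamini-Hochberg adjustment, 1746 genes (13.1%) were called, 846 higher (6.33%) and 900 lower (6.73%) in H2O2. Cdkn1a averaged 223 ± 15.2 CPM in H2O2 and 456 ± 64.0 CPM in Dox (SD, n = 3 each; log2 -1.04, edgeR adjusted p = 1.75e-05), and Ces2e 20.2 ± 4.64 and 119.8 ± 27.5 CPM (log2 -2.56, 4.51e-06). Both means in peroxide-treated cells lay between those of Blank and Dox. The number of calls fell to 845 without Dox_3, 983 without Dox_1 and 1080 without H2O2_3. Ccl5 averaged 0.965 ± 0.211 CPM in H2O2 and 9.54 ± 1.44 CPM in Dox, where Blank was 8.55 ± 2.01 CPM (SD, n = 3 each; log2 -3.31, edgeR adjusted p = 1.91e-06). Ccl5 was thus low in H2O2 alone of these 3 groups. Fmod averaged 262 ± 41.6 CPM in H2O2 and 75.0 ± 7.08 CPM in Dox, and Col1a1 3078 ± 483 and 1931 ± 73.1 CPM (SD, n = 3 each). Both matrix genes were higher in H2O2 than in Dox, at log2 1.80 and 0.67 (edgeR adjusted p = 3.65e-06 and 0.000557). Hmox1 (log2 0.09), Atf3 (0.32) and Atf4 (0.31) were not called, with edgeR adjusted p of 0.624, 0.324 and 0.122.

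**Figure D5:**
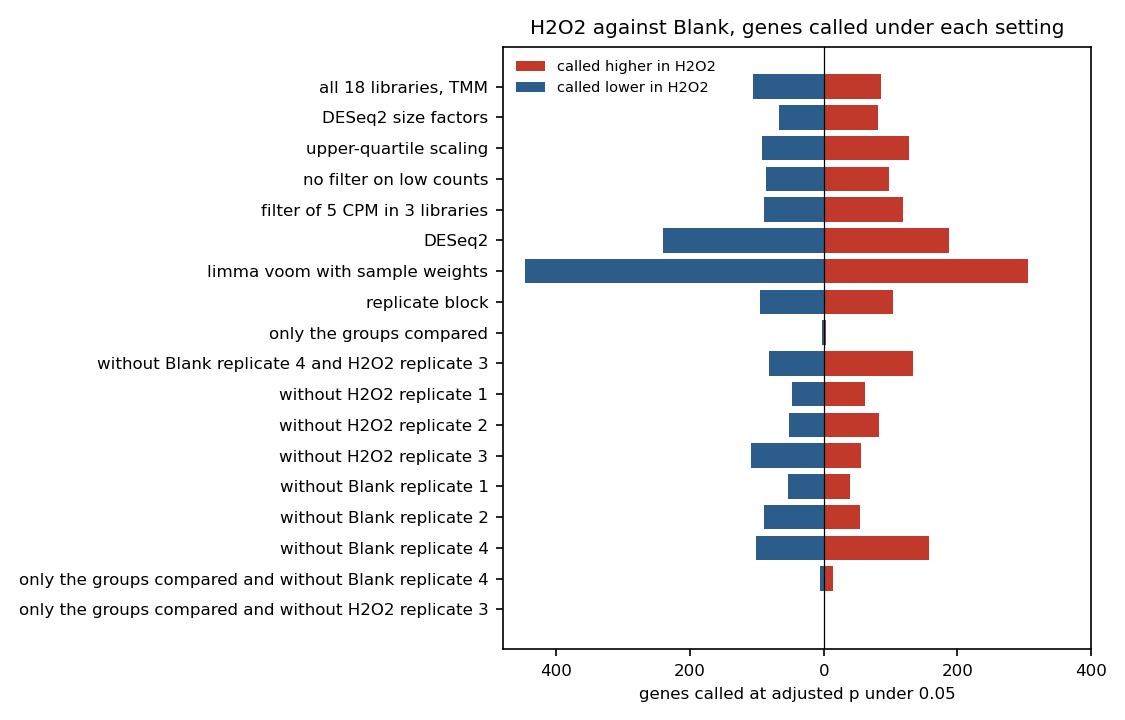
Number of genes called higher (red, right) and lower (blue, left) in H2O2 against Blank under each setting, at an adjusted p under 0.05. The 6 libraries alone gave 5 calls, against 191 in the fit of all 18 libraries and 753 with limma voom and library weights.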

How the data were processed

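Libraries were made from poly-A RNA by fragmentation, cDNA synthesis and PCR, per the labels' protocols, which do not state strand. The submitters' processing notes list fastp (version 0.22.0), HISAT2 (version 2.1.0) and HTSeq (version 0.9.1). The deposited table gives read counts per gene, raw and not normalized per the file headers, for 21959 genes, and FPKM values made by the authors, which equalled count over length and column total in 100% of values (relative tolerance 1e-06). No build is named in the sources used here. Rows without a symbol (51) held 0.0187% of counts and were kept under their identifiers.

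The 18 libraries were fitted together with edgeR 4.0.16 (R 4.3.3): filterByExpr on group, TMM scaling, quasi-likelihood test, and calls at 0.05 after Benjamini-Hochberg adjustment. Expression levels are CPM on the TMM scale; SE is the log2 fold change over the square root of F. The biological coefficient of variation was 0.219. FPKM served only the naming rule. The smallest chi-square per degree of freedom between replicates was 9.47, so none was counted as a repeat. The script was tested on simulated data.

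The groups compared, the 46 lists (1020 genes, 952 tested) and the naming rule were chosen with earlier results of these data known. Named were the 12 steepest changes each way with separate groups and at least 5 FPKM, every called list member, 14 fixed genes (Cat, Prdx1, Gpx1, Nqo1, Hmox1, Gclm, Srxn1, Txnrd1, Cdkn1a, Cdkn2a, Mki67, Lmnb1, Ccl5 and Acta2) and genes called under every alternative; other uncalled list members and genes barely detected in Blank were chosen after their values were seen. Alternatives used DESeq2 1.42.0, limma 3.58.1, other scalings and filters, the 6 libraries alone, a replicate block and left-out libraries. Fits of the 6 libraries without Blank_4 or H2O2_3 were added after seeing the data.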

Additional observations from a re-analysis of the deposited data

How the results depend on the processing

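For H2O2 against Blank, the 191 calls became 428 with DESeq2, 753 with limma voom and library weights, 5 with the 6 libraries alone, 55 at an adjusted p under 0.01 and 44 with a change over 2-fold. Added after seeing the data, the 6 libraries alone gave 20 calls without Blank_4 and 2 without H2O2_3. Leaving out each library in turn gave 94 (without Blank_1) to 259 calls (without Blank_4). H2O2 against Dox (1746) gave 3299 with limma voom, and 845 (without Dox_3) to 1741 when a library was left out. H_I against B_I (195) gave 530 with DESeq2, 1307 with limma voom, 616 with the replicate block, 35 with its 6 libraries alone, 1034 without Blank_4 and H2O2_3, and 37 (without H_I_1) to 424 (without B_I_1) when a library was left out. The interaction (0) gave 2 with DESeq2, 75 with limma voom, 6 without Blank_4 and H2O2_3, and 0 in each fit without a single library. The causes were not tested. The share of higher calls was 44.5% of the 191, but 54.7% with DESeq2 size factors, 58% with upper-quartile scaling, 57% with a filter of 5 CPM in 3 libraries, 56.9% without H2O2_1, 61.2% without H2O2_2, 33.9% without H2O2_3, 60.6% without Blank_4 and 62% without both.

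Among the genes named by the rule, signs turned for 5, none of them called in the fit of all 18 libraries. Acta2 was -0.11 without Blank_1 and -0.08 without Blank_2. Txnrd1 was -0.032 with limma voom, -0.081 with the replicate block, -0.11 without Blank_4 and -0.10 in the 6 libraries without Blank_4. Nqo1 was 0.026 with limma voom, 0.09 without Blank_4 and H2O2_3, 0.13 without H2O2_3 and 0.17 in the 6 libraries without H2O2_3. When a single library was left out, log2 values ran from -0.11 to 1.57 for Acta2, -0.11 to 0.35 for Txnrd1, -0.37 to 0.13 for Nqo1, -0.34 to -0.065 for Cdkn2a and -0.12 to -0.019 for Srxn1. Srxn1 was 0.00755 in the 6 libraries without H2O2_3, and Cdkn2a 0.050 without Blank_4 and H2O2_3. H2O2 and Blank share only the replicate numbers 1 and 2. The deviations of same-numbered libraries correlated at 0.04 and 0.12, so the numbers were not read as pairs. Replicate number 4 occurs only in Blank_4, so the replicate block gives that library its own term and takes it out of the comparison. The block thus overlaps with the fit without Blank_4 and is no test of pairing over the 6 libraries. For Spp1 the log2 fold change was 1.03 with the block and 1.02 without Blank_4. The replicate block gave 198 calls, of which 135 were among the 191. With 3 libraries a group the median 95% interval, not adjusted for the number of genes, reached 0.481 to either side on the log2 scale. Smaller changes are thus mostly not detectable. Larger ones can be missed too after adjustment, as Mki67 was (log2 -0.72, edgeR adjusted p = 0.123), so an uncalled gene or list is not shown to be unchanged.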
